A study of Mus musculus with 2 samples.

Results

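Meis1, Meis2, Meis3, Pbx2, Pbx3, Irx3, Irx5 and Shox2 were followed in E12.5 mouse distal forelimbs (autopods, the presumptive digits). These 8 genes, of 23157 in the expression table, were taken by their symbol as genes of proximal limb cells and as cofactors of the TALE class of homeobox genes. RNA-seq compared wild type forelimbs with those of HoxD Inv(TpSB1-Itga6) embryos, 1 library each, both of the strain given as C57Bl6CBAF1. In this allele a 2.4 Mb piece of chromosome 2 next to the HoxD cluster is turned around, which carries digit enhancers away from Hoxd13. Each library was a pool, given as 3 pairs of forelimbs. The mutant embryos were homozygous according to the study's methods, and the sex of the embryos is not given in the sources used here.

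The protein products of the Meis and Pbx genes bind DNA together with each other and with HOX proteins, and are therefore called HOX cofactors. The homeodomain of MEIS, PBX and IRX proteins carries an extra loop between its first helices, from which the name TALE (for 3-amino-acid loop extension) comes. In the limb bud, Meis1 and Meis2 mark the proximal cells that give rise to the upper arm and respond to retinoic acid, Shox2 is required for growth of the humerus, and Irx3 and Irx5 act in the early bud on its proximal and anterior skeleton.

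The stretch that defines the TALE class is shown for 1 gene of each family, since it is what Meis, Pbx and Irx genes share and Shox2 lacks. The sequences are coding-strand stretches of 108 bases (99 in Shox2) from the GENCODE M21 transcripts on GRCm38, with introns left out. The first capitals mark the codons of the added loop and the last capitals the codons of the third helix around its invariant tryptophan.

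Meis2, chr2:115868794-116000151, minus strand: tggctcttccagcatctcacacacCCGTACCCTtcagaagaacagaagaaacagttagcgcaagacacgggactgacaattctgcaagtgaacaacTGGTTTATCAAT

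Pbx2, chr17:34594631-34594821, plus strand: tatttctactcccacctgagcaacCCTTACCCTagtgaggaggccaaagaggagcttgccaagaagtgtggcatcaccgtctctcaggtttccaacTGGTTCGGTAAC

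Irx5, chr8:92359678-92359785, plus strand: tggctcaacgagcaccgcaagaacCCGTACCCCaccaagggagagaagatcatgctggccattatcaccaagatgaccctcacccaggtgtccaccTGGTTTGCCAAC

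Shox2, chr3:66975896-66978269, minus strand: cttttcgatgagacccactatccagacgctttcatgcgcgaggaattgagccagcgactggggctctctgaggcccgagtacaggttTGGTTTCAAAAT

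The loop codons were found in the 7 TALE genes, and Shox2, a homeobox gene of the paired-related type, has no such insert. Over the 108 bases, Irx3 and Irx5 were identical at 96.3% of positions, Pbx2 and Pbx3 at 84.3%, and the Meis genes at 82.4% to 85.2%. Between the families the identity was 50.9% to 61.1%.

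The libraries held 9280660 (wild type) and 9466154 (inversion) reads assigned to transcripts, recovered as whole reads from values that the authors had divided by a size factor of each library. Such values are called normalized reads here, and a gene is the sum of its transcripts. Ratios are inversion over wild type on the log2 scale, with a pseudocount of 1, on which changes of genes with few reads are understated. As there is a single library per genotype, no difference could be checked against replicates. Each ratio has a 95% interval from the exact Clopper-Pearson bounds on the part of a gene's reads that came from the inversion, for counting error only. In such whole tissue a smaller number of cells of one type and less RNA per cell cannot be told apart.

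All 8 genes were detected in both libraries and passed the filter of a mean of at least 10 normalized reads. Shox2 was higher in the inversion library, while Meis1, Meis2, Pbx2, Pbx3, Irx3 and Irx5 were lower and Meis3 was nearly equal. None reached a 2-fold difference, a difference that 3.99% of the 16756 genes past the filter reached on the higher side and 0.483% on the lower side. At a 1.5-fold difference, 1 gene (Shox2) was higher and 0 were lower, where the shares among all genes were 9.41% and 2.04%. The 8 genes had a median log2 ratio of -0.12 and all genes past the filter one of -0.02, and 53.4% of all genes were lower in the inversion library.

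**Figure D1:**
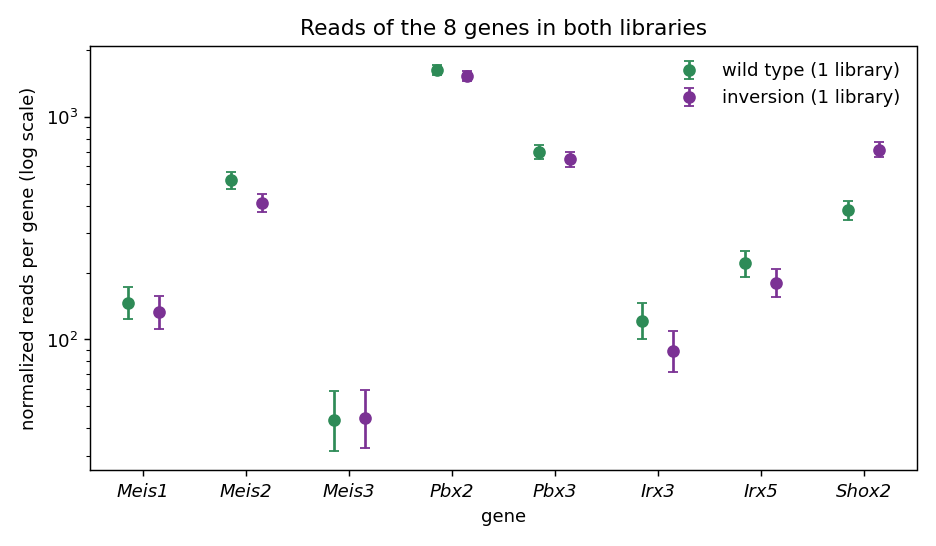
Normalized reads per gene (vertical axis, log scale) of the 8 genes in the wild type library (green) and the inversion library (purple), with bars for the exact 95% Poisson interval of counting error. The bars of the 2 libraries are clearly apart for Shox2, from 381 to 715, and do not overlap for Meis2 either, from 521 to 412.

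Shox2 (chr3:66971727-66981771, minus strand, GRCm38) encodes a transcription factor needed for the most proximal limb segment. Its level was 380.7 normalized reads in wild type against 715.0 in the inversion, from 376 and 724 reads, which made it 1.88-fold higher in the inversion library (log2 ratio 0.91, 95% interval 0.73 to 1.09). The lower end of this interval, 0.73, lay above the upper end for each of the other 7 genes, the highest of which was 0.67 for Meis3. Of all genes past the filter 95.2% had a lower log2 ratio than Shox2, and of the 11831 genes whose mean reached 100 the share was 98.5%.

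**Figure D2:**
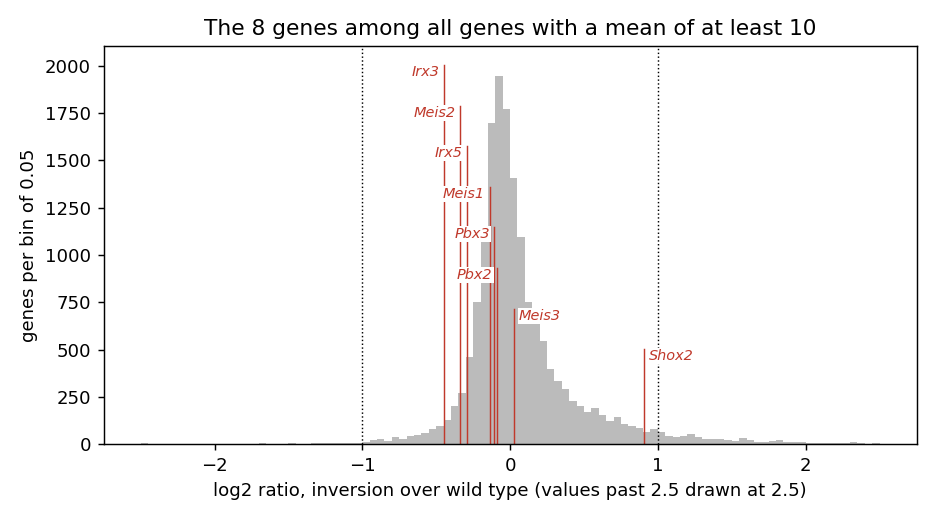
Number of genes (vertical axis) per bin of 0.05 in the log2 ratio, inversion over wild type, (horizontal axis) for the 16756 genes past the filter, with red lines at the 8 genes and dotted lines at a 2-fold difference. Shox2 lies at 0.91 in the right tail, with 95.2% of genes below it, and the other 7 lie between -0.45 and 0.03.

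The Shox2 difference was seen in each of its 4 transcripts, all of them protein-coding. Shox2-204, which took 49.5% of the gene's wild type value, had 188.3 and 367.4 normalized reads (log2 ratio 0.96, 95% interval 0.71 to 1.23). The values of Shox2-203 were 89.1 and 127.4 (log2 ratio 0.51), and those of Shox2-202 were 53.7 and 106.7 (log2 ratio 0.98). Shox2-201 was the only transcript of the gene past 2-fold, with 49.6 and 113.6 normalized reads (2.29-fold, log2 ratio 1.18, 95% interval 0.70 to 1.71). The 4 intervals lie above 0, but the 4 transcripts are not separate measurements, since they share most of their sequence. Windows of 100 bases found in no other transcript of the gene made up 7.5% of Shox2-204, 2.2% of Shox2-203 and 3.6% of Shox2-202.

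Shox2-201 alone contains a short coding piece of 36 bases, or 12 codons, at chr3:66973908-66973943 (GRCm38, minus strand). It is shown because the other transcripts of the gene splice it out. The piece is not the only sequence that sets Shox2-201 apart. In this transcript 584 windows of 100 bases occur in no other transcript of the gene, more than such a piece can give. Capitals mark the piece and lower case the 12 bases of transcript on each side.

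Shox2-201: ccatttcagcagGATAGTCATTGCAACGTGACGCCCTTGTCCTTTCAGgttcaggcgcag

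The 3 transcripts that splice this piece out summed to 331 normalized reads in wild type against 601 in the inversion (log2 ratio 0.86, 95% interval 0.66 to 1.06). This interval overlaps that of Shox2-201, so a difference between the splice forms was not detectable at this depth. Of the 100-base windows of Shox2-201, 19.6% occur in no other transcript of the gene, so most of its sequence is shared, and reads that fit several transcripts could be split among them in ways that the sources do not describe.

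The genes around Shox2 had lower ratios than Shox2. The median log2 ratio of the 5 filtered genes within 500 kb was -0.05, with a range of -0.17 to 0.47. The highest was that of Rarres1, with 30 and 43 reads. Its 95% interval, -0.22 to 1.21, contains that of Shox2, so their ratios cannot be told apart at this depth. The intervals of the other neighbours lay below that of Shox2. Rsrc1, a splicing-related gene on the other strand, overlaps the start of Shox2 by 382 bases and had 709 normalized reads in wild type against 686 in the inversion. The libraries were strand-specific, but whether the counting used the strand is not given in the sources used here.

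Marker lists of other cells also differed between the libraries, in both directions. Those of muscle, cartilage, and Schwann cell and neural crest genes, with median log2 ratios of 0.70, 0.22 and 0.31, stand here beside Shox2. Those of endothelial, surface ectoderm, red cell and macrophage genes had medians of -0.08, -0.23, -0.18 and -0.15 and are given further below. Of 8 skeletal muscle genes, 7 were higher in the inversion library, with a summed level of 1104 normalized reads in wild type against 2139 in the inversion. The summed level of 8 cartilage genes was 12465 and 14593, with 5 of them higher, and that of 5 Schwann cell and neural crest genes was 1038 and 1097, with 4 of them higher. Among all genes past the filter, 46.6% were higher. The libraries also differed in embryo sex, since 4 Y-linked genes summed to 836 normalized reads in wild type against 2785 in the inversion. Xist, an RNA of female cells, had 2640 normalized reads in wild type against 12.8 in the inversion. Sex and genotype thus differed together between the libraries and cannot be told apart here. No gene of these lists was at 0 in either library. The part of these differences in the Shox2 value was not tested.

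Meis2 (chr2:115863064-116065839, minus strand) encodes a proximal limb cofactor of HOX proteins and had 521.5 normalized reads in wild type against 411.8 in the inversion, from 515 and 417 reads. It was 1.27-fold lower in the inversion library (log2 ratio -0.34, 95% interval -0.53 to -0.15), and 5.59% of all genes had a lower log2 ratio. Meis1 (chr11:18879817-19018985, minus strand), its close relative, had 145.8 and 132.3 normalized reads, from 144 and 134 reads (log2 ratio -0.14, 95% interval -0.49 to 0.21). For Meis1 no difference was detectable at this depth.

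Meis3 (chr7:16175090-16186504, plus strand), the third member of the family, was the least abundant of the 8 genes. It had 43.6 and 44.5 normalized reads, from 43 and 45 reads (log2 ratio 0.03, 95% interval -0.61 to 0.67), the widest interval of the 8 genes. Summed over the 3 Meis genes, the level was 711 normalized reads in wild type against 589 in the inversion (log2 ratio -0.27, 95% interval -0.43 to -0.11), and Meis2 held most of these reads.

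The Meis2 reads were spread over 11 transcripts. Meis2-205, which took 27.6% of the wild type value, had 143.8 and 95.8 normalized reads (log2 ratio -0.58, 95% interval -0.97 to -0.20), the lowest ratio among the transcripts of the gene with a mean of at least 10. Meis2-203 (111 and 89 reads), Meis2-202 (79 and 61 reads) and Meis2-204 (37 and 27 reads) were lower in the inversion library as well. Meis2-201 went the other way, from 6 to 20 reads (log2 ratio 1.55, 95% interval 0.33 to 3.31), and has 5 windows of 100 bases that are not shared with another transcript of the gene. One transcript not found in GENCODE M21 had 79 and 65 reads.

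In Meis2, 3 transcripts contain a piece of 21 bases, or 7 codons, at chr2:115867359-115867379 (GRCm38, minus strand), close to the end of the coding sequence. It is shown because it separates the most abundant transcript, Meis2-205, from Meis2-203 and Meis2-202. Capitals again mark the piece.

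Meis2-201: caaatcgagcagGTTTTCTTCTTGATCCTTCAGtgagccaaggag

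Transcripts with the piece summed to 187 and 142 normalized reads (log2 ratio -0.40, 95% interval -0.72 to -0.08), and those that splice it out to 228 and 185 (log2 ratio -0.30, 95% interval -0.59 to -0.02). Both sums were thus lower in the inversion library, and their intervals overlap. Of the transcripts that splice the piece out, Meis2-203 has 5 windows of 100 bases of its own and Meis2-202 has 0. Reads that fit several transcripts could be split between the 2 forms in ways that the sources do not describe. The sums therefore cannot show whether both forms were lower.

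In Meis1, the protein-coding transcript Meis1-201 held 43.7% of the normalized reads in wild type against 42.5% in the inversion, with 63 and 57 reads. The remaining reads were on transcripts annotated as non-coding, as subject to nonsense-mediated decay or as retaining an intron, namely Meis1-203 (48 and 41 reads), Meis1-202 (15 and 20), Meis1-204 (12 and 8) and Meis1-205 (6 and 8). In Meis2, protein-coding transcripts of GENCODE M21 held 72.8% and 70.5%. The Meis2 transcripts past the filter that are not coding were Meis2-208 (24 and 23 reads), Meis2-213 (16 and 17) and Meis2-207 (11 and 14). Nearly all Meis3 reads, 41 and 43, were on its single transcript with a known length, Meis3-201.

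Pbx2 (chr17:34591266-34597400, plus strand), which encodes a partner of both MEIS and HOX proteins, had the most reads of the 8 genes. It had 1630 normalized reads in wild type against 1533 in the inversion, from 1610 and 1552 reads (log2 ratio -0.09, 95% interval -0.19 to 0.01). Pbx3 (chr2:34171457-34373142, minus strand), its paralog, had 697.7 and 647.9, from 689 and 656 reads (log2 ratio -0.11, 95% interval -0.26 to 0.05). These are the narrowest intervals of the 8 genes, and both include 0. The sum of both was 2328 normalized reads in wild type against 2181 in the inversion (log2 ratio -0.09, 95% interval -0.18 to -0.01).

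The 4 transcripts of Pbx2 did not all lean the same way. Pbx2-201, the longest, had 957.9 and 852.3 normalized reads (log2 ratio -0.17, 95% interval -0.30 to -0.03). Pbx2-203 had 453 and 460 reads, Pbx2-204 had 125 and 134, and Pbx2-202, which retains an intron, had 86 and 95, each with an interval that includes 0. Pbx2 also overlaps Gpsm3, a regulator of G protein signalling, on the same strand by 489 bases, and Gpsm3 had 86.1 and 91.9 normalized reads. In Pbx3, transcripts Pbx3-201 (318 and 303 reads) and Pbx3-202 (314 and 302) took nearly equal parts, and a transcript not found in GENCODE M21 had 57 and 45 reads. Pbx3-201 contains an exon of 113 bases at chr2:34176749-34176861 (GRCm38, minus strand) that Pbx3-202 skips, and the log2 ratios with and without this exon were -0.11 and -0.09. Pbx3-205 had 0 reads in wild type, which allows up to 3 reads, and 6 in the inversion.

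Irx3 and Irx5 had the lowest and the third lowest ratio of the 8 genes. Irx3 (chr8:91798525-91802067, minus strand) had 121.5 normalized reads in wild type against 88.9 in the inversion, from 120 and 90 reads, and was 1.37-fold lower in the inversion library (log2 ratio -0.45, 95% interval -0.86 to -0.04). Irx5 (chr8:92357625-92376286, plus strand) had 219.7 and 179.7, from 217 and 182 reads (log2 ratio -0.29, 95% interval -0.58 to 0.0011). The interval of Irx5 just includes 0. Each gene is listed with a single transcript, so no assignment between transcripts bears on these values. The sum of the pair was 341 normalized reads in wild type against 269 in the inversion (log2 ratio -0.34, 95% interval -0.58 to -0.11).

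The pair lies in the same cluster as Irx6, with 555.6 kb between Irx3 and Irx5 and 298.0 kb between Irx5 and Irx6. Irx6 was the gene of the TALE list with the lowest ratio, with 134.7 normalized reads in wild type against 38.5 in the inversion, from 133 and 39 reads (3.50-fold lower, log2 ratio -1.78, 95% interval -2.36 to -1.28). Fto, the gene next to Irx3 whose introns hold enhancers of the cluster in other tissues, had a log2 ratio of -0.18. The antisense gene of Irx3, listed as D230002A01Rik, had 10 and 19 reads.

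The Irx genes of the other cluster also had log2 ratios below 0, with intervals that overlap each other. Irx1 had 742 and 469 normalized reads (log2 ratio -0.66, 95% interval -0.83 to -0.49) and Irx2 had 416 and 286 (log2 ratio -0.54, 95% interval -0.76 to -0.32). Irx4 had 115 and 108 reads (log2 ratio -0.13, 95% interval -0.52 to 0.26, which includes 0). The log2 ratio was below 0 for 6 of 6 Irx genes, as for 53.4% of all genes, with a median log2 ratio of -0.49 and a summed level of 1751 normalized reads in wild type against 1169 in the inversion.

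Over the whole TALE list of 18 genes, which includes the 7 Meis, Pbx and Irx genes above and passed the filter in full, 13 were lower and 5 higher in the inversion library. The median log2 ratio was -0.12, against -0.02 for all genes, of which 53.4% were lower and 46.6% higher. A difference of at least 2-fold was found for 1 gene on the lower side (Irx6) and 0 on the higher side, to be read against 0.483% and 3.99% of all genes. The 11 TALE genes outside the 8 had a median of -0.08. Among them Pknox1, whose product competes with MEIS for PBX, had a log2 ratio of -0.08. Those of Tgif1, Tgif2 and Mkx were 0.01, -0.01 and 0.18. Pknox2 was higher in the inversion library (log2 ratio 0.30, 95% interval 0.11 to 0.48). Pbx4, with 37 and 58 reads, had a log2 ratio of 0.60 and a 95% interval of -0.0071 to 1.25 that includes 0.

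**Figure D3:**
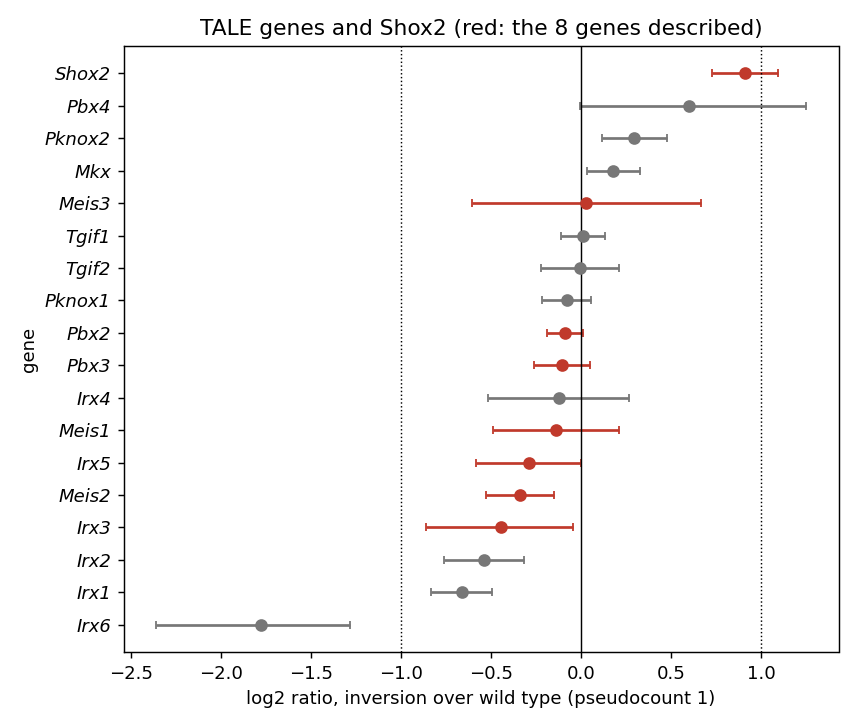
Log2 ratio of inversion over wild type (horizontal axis) with its 95% counting interval for 17 TALE genes and Shox2 (vertical axis, in order of the ratio), the 8 genes described in red and dotted lines at a 2-fold difference. Shox2 is at the top at 0.91, the lowest places are held by Irx6 (-1.78), Irx1 (-0.66), Irx2 (-0.54) and Irx3 (-0.45), and Pbx2 (-0.09) and Pbx3 (-0.11) lie close to 0.

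An exact binomial test of each gene's recovered reads, which compares these 2 libraries and not the genotypes, called Shox2 higher and Meis2 lower at an adjusted p under 0.05 over all genes. It called 12.3% of all genes higher and 7.87% lower. Of the 8 genes, 5 had a 95% interval that includes 0, those of Meis2 and Irx3 lay below 0, and that of Shox2 lay above it. Such intervals lay below 0 for 13.0% and above 0 for 16.7% of all genes. All 8 genes together summed to 3761 normalized reads in wild type against 3753 in the inversion, nearly equal. Without Shox2, the gene with the highest ratio, the other 7 summed to 3380 and 3038 (log2 ratio -0.15, 95% interval -0.23 to -0.08). Pbx2, whose own interval includes 0, held more of these reads than any other gene, 1630 and 1533. The interval of the sum therefore does not show a decrease shared by the 7 genes.

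At the level of single transcripts, the 8 genes were listed with 32 transcripts, of which 27 had a mean of at least 10. Of these, 2 were past 2-fold on the higher side, Shox2-201 and Meis2-201, and 0 on the lower side. Among all 45239 transcripts with such a mean, 6.66% were past 2-fold on the higher side and 2.19% on the lower side. Of the 27, 16 had a lower value in the inversion library and 11 a higher one. Leaving out Shox2, 16 of 23 were lower and 7 higher, where 50.3% of all transcripts with such a mean were lower and 49.7% higher. For 19 of the 23 transcripts the 95% interval included 0. The 23 are not separate units, since transcripts of a gene share sequence. Meis2-202 and Meis2-208, for example, have 0 windows of 100 bases of their own.

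**Figure D4:**
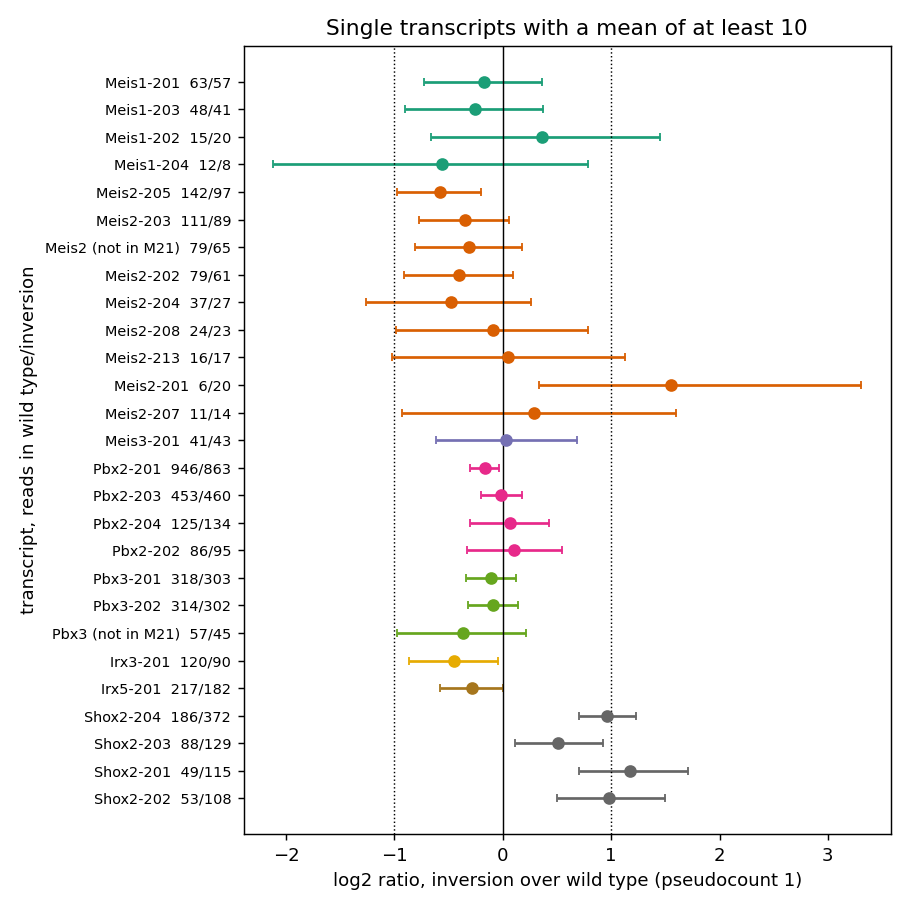
Log2 ratio of inversion over wild type (horizontal axis) with its 95% counting interval for the 27 transcripts with a mean of at least 10 (vertical axis, with the reads in wild type and inversion), coloured by gene and with dotted lines at a 2-fold difference. The 4 Shox2 transcripts lie between 0.51 and 1.18, and Meis2-201, with 6 and 20 reads, has the widest interval on the higher side.

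Compared per length of transcript, the order of the 8 genes was the same in both libraries. Pbx2 stood first with 871 normalized reads per kilobase in wild type and 854 in the inversion, followed by Shox2 with 259 and 494, Pbx3 with 241 and 236, and Meis2 with 180 and 136. The lower places were taken by Irx5 (89.7 and 73.4), Meis1 (55.7 and 50.0), Irx3 (46.6 and 34.1) and Meis3 (24.0 and 24.5). In wild type the counting intervals of the neighbours Shox2 and Pbx3 overlapped, at 233 to 286 and 223 to 259, as did those of Meis1 and Irx3, so their order there is not set by these reads. In the inversion library Shox2 and Pbx3 stood apart. The levels rest on transcripts with a known length, which held 84.6% of the reads of Meis2, 92.4% of those of Pbx3 and 95.4% of those of Meis3. The remaining Pbx3 reads could change its order with Shox2 in wild type.

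**Figure D5:**
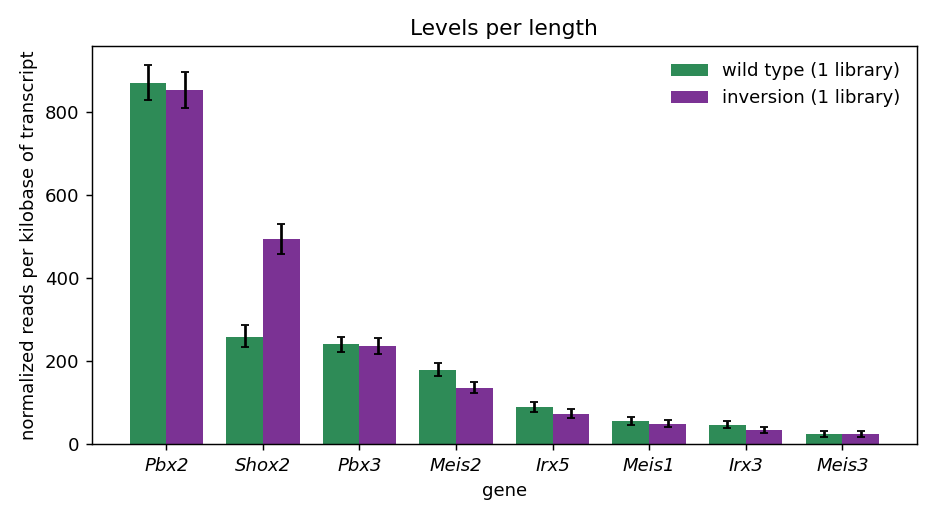
Normalized reads per kilobase of transcript (vertical axis) of the 8 genes in order of their wild type level, for the wild type library (green) and the inversion library (purple), with bars for the 95% counting interval. Shox2 stands at 259 and 494, the largest gap between the bars of a gene, and the error bars of Shox2 and Pbx3 overlap in wild type.

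A list of 8 genes of distal limb cells, among them Hoxa13 and Hoxd13, was also followed. All of them were detected. The proximal genes Meis1, Meis2 and Shox2 were detected too, so detection alone cannot check the tissue label. The summed level of the 8 distal genes was 9322 normalized reads in wild type against 7863 in the inversion, with 7 of 8 lower. This sum includes Hoxd13, from which the inversion carries digit enhancers away. Hoxd13 had 2292 normalized reads in wild type against 1503 in the inversion, the lowest ratio of the 8 (log2 ratio -0.61). Hoxa13 was slightly higher in the inversion library (log2 ratio 0.12, 95% interval 0.0007 to 0.24), and this interval barely excludes an equal level. Retinoic acid is the signal that Meis genes respond to, and of 12 genes of its synthesis, breakdown and reception 9 were lower and 3 higher in the inversion library, with a median log2 ratio of -0.24. Lists of endothelial, surface ectoderm, red cell and macrophage genes, of 5 genes each, had medians of -0.08, -0.23, -0.18 and -0.15, where the median of all genes was -0.02. The part of these values in the lower ratios of the Meis, Pbx and Irx genes was not tested.

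None of the 8 genes is close to the HoxD cluster. Meis2 and Pbx3 are on chromosome 2 as well, at 41.2 Mb and 40.3 Mb from Hoxd13 in GRCm38, and the other genes are on other chromosomes. The median log2 ratio of the 91 filtered genes within 500 kb of them was 0.0043. Irx6 was the single gene among them that was at least 2-fold lower. At least 2-fold higher were 6 of the 91, where 3.99% of all genes were higher and 0.483% lower by this much. These 6 are among the 45 filtered neighbours of Pbx2, in a gene-rich stretch of chromosome 17, and are Ager (log2 ratio 1.83), AC087117.4 (1.71), RP23-349B4.7 (1.17), C4a (1.12), Msh5 (1.03) and Hspa1l (1.01). AC087117.4, a small nucleolar RNA gene with 5 and 19 reads, lies within RP23-349B4.7 on the same strand, so they are not separate loci. Pbx2 itself, at -0.09, did not share the ratio of these neighbours.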

How the data were processed

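E12.5 distal forelimb RNA was sequenced by the authors as strand-specific, poly(A)-selected libraries (TruSeq, 100-base single reads), mapped to NCBIM37 (mm9, with Bowtie2 named in the submitters' processing notes) and assigned to transcripts. The deposited signal values are reads per transcript over a library size factor, with 0.5 for no reads, which was set to 0. The RPKM unit of the paper's methods is not that of these values. Recovery of whole reads succeeded for 100% of the other values in both libraries (tolerance 0.006). Columns of the authors' own comparison (fold change, log2 ratio, p-value and adjusted p-value) were not used.

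Transcripts were summed by symbol and chromosome. Genes whose mean reached 10 normalized reads were compared by log2 ratio with a pseudocount of 1 and counted at 2-fold. An exact binomial test of recovered reads (Benjamini-Hochberg adjusted over 16756 genes, threshold 0.05) called 2068 genes higher and 1318 lower. With 1 library per genotype edgeR could not be used. Transcript types, lengths, sequences and positions are from GENCODE M21 (GRCm38), matched by identifier for 56451 of 64053 transcripts (88.1%), and no coordinate was converted. The 8 genes and all gene lists were chosen with earlier results of these data known. The rule for named genes takes the 8 genes, their transcripts with a mean of at least 10, the TALE list, and neighbours within 500 kb past 2-fold. Rsrc1, Rarres1, Gpsm3, Fto, D230002A01Rik, Meis1-205 and Pbx3-205 were named after their values were seen. In the TALE list 1 gene is counted but not reported here singly. The steps were tested on simulated data. Tables were handled with pandas 2.3.3 and numpy 2.4.6 in Python 3.11.15, tests were run with scipy 1.17.1, and plots were drawn with matplotlib 3.10.9.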

Additional observations from a re-analysis of the deposited data

How the results depend on the processing

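No paired analysis was possible because each genotype has a single library, and for the same reason no library could be left out in turn. Over 6 alternatives (scaling by the total or the upper quartile, pseudocounts of 5 and 0.1, the transcript with the highest mean, protein-coding transcripts only), 47 of 48 values of single genes kept their sign and stayed within the counting interval, and the other, Meis2 with its transcript of highest mean (-0.58), kept its sign. Part of this was fixed by construction, as the 16 values under another scaling shift all genes alike (by 0.0075 or -0.0094) and 5 of the 16 under a choice of transcripts drop none of the gene's transcripts. The log2 ratio of Shox2 ranged from 0.90 to 0.96. The median of the 8 genes ranged from -0.17 to -0.12 over 8 alternatives, filters included, and that of the TALE list from -0.17 to -0.11. None of the 8 genes was 2-fold changed under these settings. At 1.5-fold 1 was higher, and the exact binomial test, applied to the 8 genes after seeing the data, called 1 higher and 1 lower. The counts over all genes moved more. They were 1992 higher and 1089 lower without a filter, 139 and 12 where the mean had to reach 100, 1577 and 341 at 1.5-fold, 113 and 13 at 4-fold, 2068 and 1318 by the exact binomial test, and 412 and 110 with protein-coding transcripts only. Filters and thresholds change these counts by construction. The cause of the change with protein-coding transcripts was not tested. Depth limits Meis3 most, with 43 and 45 reads.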
